A study of Mus musculus with 2 samples.

Results

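The lysosomal cathepsins, legumain and cystatin C were followed across the cell types of the mouse spleen that CD11c enrichment yields. The set held 9 of the 27032 genes counted in each sample: Ctsb, Ctsl, Ctss and Ctsd, Ctsc, Ctsh and Ctsz, Lgmn, and Cst3. They were taken by name as 1 family. No measured value served as a rule for the choice, but earlier results of these data were known when it was made. The scRNA-Seq data came from 2 samples of wild-type mice, called replicates 1 and 2, whose spleen cells were enriched for CD11c on magnetic beads, tagged by sample and captured on the BD Rhapsody system. This system pairs each cell with a barcoded bead in a microwell and counts each captured transcript by its unique molecular identifier (UMI). Both samples carry the wild-type genotype and no treatment, age or strain is given in the labels, so the comparisons run between cell types within the samples. Whether each sample is a separate mouse is not given, and p-values then measure the spread between these samples, which may be technical.

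Replicate 1 held 3308 cells and 46953398 UMIs, and replicate 2 held 3085 cells and 43137746 UMIs, with a median of 11869.5 and 11241 UMIs per cell and 0 cell barcodes in common. A cell was assigned to the first of 9 groups whose UMI minimums it met, in the following order. Macrophages held at least 20 UMIs of Vcam1 and 5 of C1qb, mature DCs at least 2 of Ccr7 and 1 of Fscn1, cDC1s at least 2 of Clec9a and 1 of Xcr1, and plasmacytoid DCs (pDCs) at least 3 of Siglech and 1 of Ccr9. B cells held at least 3 UMIs of Cd79a, T cells 2 of Cd3e, NK cells 1 of Ncr1, DCIR2 cDC2s 2 of Clec4a4, and CLEC10A cDC2s 2 of Clec10a and Cd209a together. These minimums took in 2538 cells of replicate 1 and 2384 of replicate 2, of which 350 and 313 met more than 1 of them. Levels are given as CPM, the UMIs of a gene after the UMIs of all cells of a group in 1 sample are scaled to a total of 1e+06. Median depth per cell was highest in cDC1s (20185 and 21782.5 UMIs) and macrophages (19570.5 and 19416) and lowest in T cells (5922.5 and 6382).

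The other markers of each type fitted the labels of the groups, with exceptions. Macrophages held C1qc at 4256 CPM in replicate 1 and 4247 in replicate 2 and Hmox1 at 4922 and 4969, but also the haemoglobin gene Hba-a1 at 1211 and 996 CPM and Cadm1 at 1084 and 1128, which cDC1s held at 995 and 1061. The B-cell group held the plasma cell gene Jchain at 5454 and 659 CPM beside Ms4a1, and the NK-cell group held Lyz2 at 1146 and 489 CPM beside Gzma and Nkg7. The pDCs were only 14 and 20 cells, and 10 and 13 of them also met a cDC2 minimum. They held Siglech at 1118 and 983 CPM and Tcf4 at 1326 and 1954, and also Cd209a at 400.4 and 468, Fscn1 at 333 and 247 and Clec9a at 166 and 338 CPM. The part of these admixtures in the results was not tested, except where values without such cells are given.

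Cathepsins are the main proteases of endosomes and lysosomes. Most are cysteine proteases of the papain family, whereas cathepsin D is an aspartic protease, and legumain is an asparaginyl endopeptidase that also cleaves cathepsin precursors to their mature forms. In antigen-presenting cells they degrade internalized protein to peptides and remove the invariant chain (Cd74) from MHC class II molecules, a process in which cathepsin S is the best-known enzyme of DCs and B cells. Cystatin C, the product of Cst3, is a secreted inhibitor of papain-family cathepsins and also inhibits legumain.

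Sequences at the start sites of these genes were looked at for letters that factors of lysosomal and myeloid genes bind, since 7 of the 9 genes had an entry among the RefSeq promoter windows of GRCm38.p6 (250 bases before to 50 after a start, 8 windows). The stretches below are shown because they hold a match, with the matched letters in capitals and the sequence written along the strand of the gene.
Ctss: gtctttaaatGAAACCGAAAtgaaagttca
Ctsd: cgcccgcgtcTCACGTGAcccgttgagg
Lgmn: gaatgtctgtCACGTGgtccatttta
Ctsl: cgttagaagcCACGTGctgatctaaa
The Ctss stretch lies at chr3:95526755-95526784 on the forward strand and matches the core of the interferon response element (GAAA, any 2 bases, GAAA), 21 bases before the start. This motif, read on both strands, was found in 3.44% of 32851 promoter windows. The Ctsd stretch (chr7:142387909-142387936, reverse strand) matches TCACGTGA, a form of the E-box that TFEB and its relatives bind at lysosomal genes, found in 0.974% of the windows. It lies 99 bases before the RefSeq start and within a Ctsd exon of GENCODE. The stretches of Lgmn (chr12:102439126-102439151) and Ctsl (chr13:64370741-64370766, within a Ctsl exon of GENCODE), both on the reverse strand, match the E-box core CACGTG, which also lies within TCACGTGA and was found in 7.15% of the windows. The Lgmn stretch lies 49 bases before a RefSeq start, within the GENCODE bounds of Lgmn but in no exon. The PU.1 core GAGGAAGT, found in 3.20% of the windows, was matched in the windows of Ctsc and Ctss on the strand opposite to the gene. A match describes the letters only and is no evidence of binding. The windows of Ctsz and Cst3 held none of these motifs, and Ctsb and Ctsh had no window.

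Cathepsin B, a cysteine endopeptidase that also removes dipeptides from chain ends, stood apart in macrophages. Ctsb (chr14:63122462-63145923, forward strand, GRCm38) was at 11112 CPM in replicate 1 and 10867 in replicate 2 of macrophages, a mean of 10989 ± 173 (SD, n = 2). The pDCs followed at 827 and 877 CPM, CLEC10A cDC2s at 463 and 534, cDC1s at 390 and 401, mature DCs at 399 and 355 and DCIR2 cDC2s at 380 and 344. B cells (178 and 161 CPM) and T cells (159 and 198) were lowest. The levels of CLEC10A cDC2s, NK cells, cDC1s and mature DCs each overlapped with the next in order, which after mature DCs was DCIR2 cDC2s. Those of DCIR2 cDC2s did not overlap with T cells, and those of macrophages and pDCs overlapped with no neighbor. In single macrophages the Ctsb count was also high throughout, with 10th and 90th percentiles of 64.3 and 158 UMIs per 10000 UMIs of a cell in replicate 1 and 62.7 and 172 in replicate 2. NK cells were at 678 CPM in replicate 1 and 187 in replicate 2, and 1 NK cell of replicate 1 held 154 of the 258 Ctsb UMIs there. This cell, with 20296 UMIs, also held 57 UMIs of C1qb and 247 of Lyz2, and without it the level was 289 CPM. At that level NK cells lay below CLEC10A cDC2s and cDC1s in both samples and overlapped with neither.

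Cathepsin L, the endopeptidase of thymic epithelium and macrophages, was restricted to fewer groups. Ctsl (chr13:64359337-64370890, reverse strand) was at 170 CPM in macrophages of both samples and at 83.2 and 63.4 CPM in pDCs, and at most 10.6 CPM in a sample of the other 7 groups, where in mature DCs of replicate 1 a single cell held 15 of 18 UMIs. The pDC level rested on 16 and 18 UMIs, of which 1 cell held 7 in replicate 1 and 1 cell held 10 in replicate 2. Depth sets the share of cells in which a gene is seen, so each cell was thinned to 3000 UMIs, and shares are given on the thinned cells with a 95% exact (Clopper-Pearson) binomial interval, which covers counting error only. A Ctsl UMI was then found in 40.5% (35.4 to 45.8) of macrophages in replicate 1 and 39.1% (31.5 to 47.1) in replicate 2 (83.5% and 90.1% without thinning). In T cells, which served as background, it was found in 0 of 50 and in 2.14% (0.586 to 5.39) of 187 cells, and the cDC1, cDC2 and mature DC groups lay between 0.563% and 1.63%. The Ctsl share of the conventional and mature DCs was therefore at the background of T cells and is not read as expression. In pDCs a UMI was found in 21.4% (4.66 to 50.8) of 14 cells and in 10% (1.23 to 31.7) of 20. These wide intervals overlapped with those of T cells (0 to 7.11 and 0.586 to 5.39), so the shares do not set pDCs apart from background.

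Cathepsin S, the invariant chain protease of DCs and B cells, was found in every group and varied least of the endopeptidases. Ctss (chr3:95526786-95556403, forward strand) was at 2858 and 3001 CPM in macrophages, 1908 and 1930 in pDCs, 1847 and 1898 in CLEC10A cDC2s, 1349 and 1318 in DCIR2 cDC2s and 1170 and 1254 in mature DCs. The cDC1s followed at 671 and 711 CPM and overlapped with B cells at 800 and 566, and T cells were lowest at 265 CPM in both. The order of the DC groups was thus the same in both samples.

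Cathepsin D, the aspartic protease, was a gene of macrophages and, at a lower level, of NK and T cells. Ctsd (chr7:142375911-142388038, reverse strand) was at 708 and 622 CPM in macrophages, 142 and 173 in NK cells and 47.5 and 50.8 in T cells. Neither cDC2 group nor mature DCs exceeded 13.6 CPM, and cDC1s were lowest at 3.53 and 3.27. A UMI was found in 85.2% (81.1 to 88.7) and 83.9% (77.2 to 89.2) of thinned macrophages, in 42.1% (26.3 to 59.2) and 31.4% (16.9 to 49.3) of NK cells, and in 16.0% (7.17 to 29.1) and 13.4% (8.84 to 19.1) of T cells. B cells, at a depth close to that of NK cells, held one in 0.00% (0.00 to 4.93) and 2.00% (0.548 to 5.04), and 1.51% and 0.986% of cDC1s did. Ctsd shares 34.4% of its exon bases with Gm49369, an annotated gene on the same strand. The sources used here do not say how reads shared by both were counted, so the level of Ctsd itself is uncertain.

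Among the exopeptidases, cathepsin C removes dipeptides from the amino end and activates granzymes and other granule proteases. Ctsc (chr7:88278085-88310888, forward strand) was at 1810 and 1823 CPM in macrophages, followed by CLEC10A cDC2s at 446 and 493. B cells, pDCs and DCIR2 cDC2s overlapped between 260 and 365 CPM. T cells (92.2 and 147 CPM) and cDC1s (102 and 99.3) were lowest and overlapped. A Ctsc UMI was found in 22% (19.2 to 25.1) and 20.6% (17.7 to 23.7) of thinned cDC1s and in 14.0% (5.82 to 26.7) and 24.6% (18.6 to 31.4) of T cells, so that the shares of cDC1s and T cells overlapped.

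Cathepsin H, an aminopeptidase, was the cathepsin that macrophages did not lead. Ctsh (chr9:90054152-90076089, forward strand) was highest in pDCs at 562 and 553 CPM, followed by mature DCs at 516 and 525, CLEC10A cDC2s at 457 and 418, DCIR2 cDC2s at 381 and 363 and macrophages at 313 and 322. B cells (202 and 191) and cDC1s (193 and 190) overlapped, and NK cells (113 and 102) and T cells (50.3 and 30.6) were below them. A Ctsh UMI was found in 76.2% (68.5 to 82.8) and 70.7% (63.5 to 77.1) of thinned mature DCs and in 12% (4.53 to 24.3) and 5.88% (2.97 to 10.3) of T cells.

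Cathepsin Z, a carboxypeptidase, had the narrowest range of the proteases among macrophages and DCs. Ctsz (chr2:174427493-174439039, reverse strand) was at 409 and 418 CPM in macrophages, 342 and 339 in mature DCs, 285 and 279 in DCIR2 cDC2s, 288 and 269 in CLEC10A cDC2s, 234 and 317 in pDCs and 165 and 164 in cDC1s. Lymphocytes were lower, with 119 and 130 CPM in B cells, 126 and 64.5 in NK cells and 83.8 and 36.9 in T cells.

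Legumain (Lgmn, chr12:102394084-102439813, reverse strand) was at 586 and 536 CPM in macrophages and at most 72.8 in every other group. Mature DCs held 67.2 and 72.8 CPM, CLEC10A cDC2s 60.7 and 66.9, DCIR2 cDC2s 39.0 and 42.8 and cDC1s 18 and 16.7. A UMI was found in 78.5% (73.9 to 82.6) and 78.3% (71.1 to 84.4) of thinned macrophages, in 4.40% (3.09 to 6.07) and 5.07% (3.58 to 6.95) of cDC1s and in 6% (1.25 to 16.5) and 0.535% (0.0135 to 2.94) of T cells. The cDC1 share thus lay within the T-cell interval in replicate 1 and above it in replicate 2. Of the 26 Lgmn UMIs of NK cells in replicate 1, 1 cell held 20, and NK cells were at 68.3 and 3.40 CPM.

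Cystatin C, the inhibitor, was the gene of cDC1s. Cst3 (chr2:148871722-148875692, reverse strand) was at 16879 and 17410 CPM in cDC1s, a mean of 17145 ± 375 (SD, n = 2), and the next group, mature DCs, was at 4291 and 4958 CPM. Macrophages (1979 and 1868), CLEC10A cDC2s (1805 and 1784), DCIR2 cDC2s (1168 and 1214) and pDCs (952 and 1159) followed, and B cells were at 382 and 368. A Cst3 UMI was found in 48.0% (33.7 to 62.6) and 44.9% (37.7 to 52.4) of thinned T cells, 52.1% (40 to 63.9) and 61.5% (54.4 to 68.3) of B cells and 99.7% (99.1 to 99.97) and 100% (99.5 to 100) of cDC1s. The NK-cell shares were 71.1% (54.1 to 84.6) and 62.9% (44.9 to 78.5), so that at equal depth the shares of all lymphocytes lay below those of cDC1s. T cells were at 1374 CPM in replicate 1 and 313 in replicate 2. Of the 492 Cst3 UMIs of T cells in replicate 1, 1 cell held 405, and this cell also held 34 UMIs of Clec9a. Without it the level was 253 CPM, below that of B cells in the same sample, as it was in replicate 2.

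**Figure D1:**
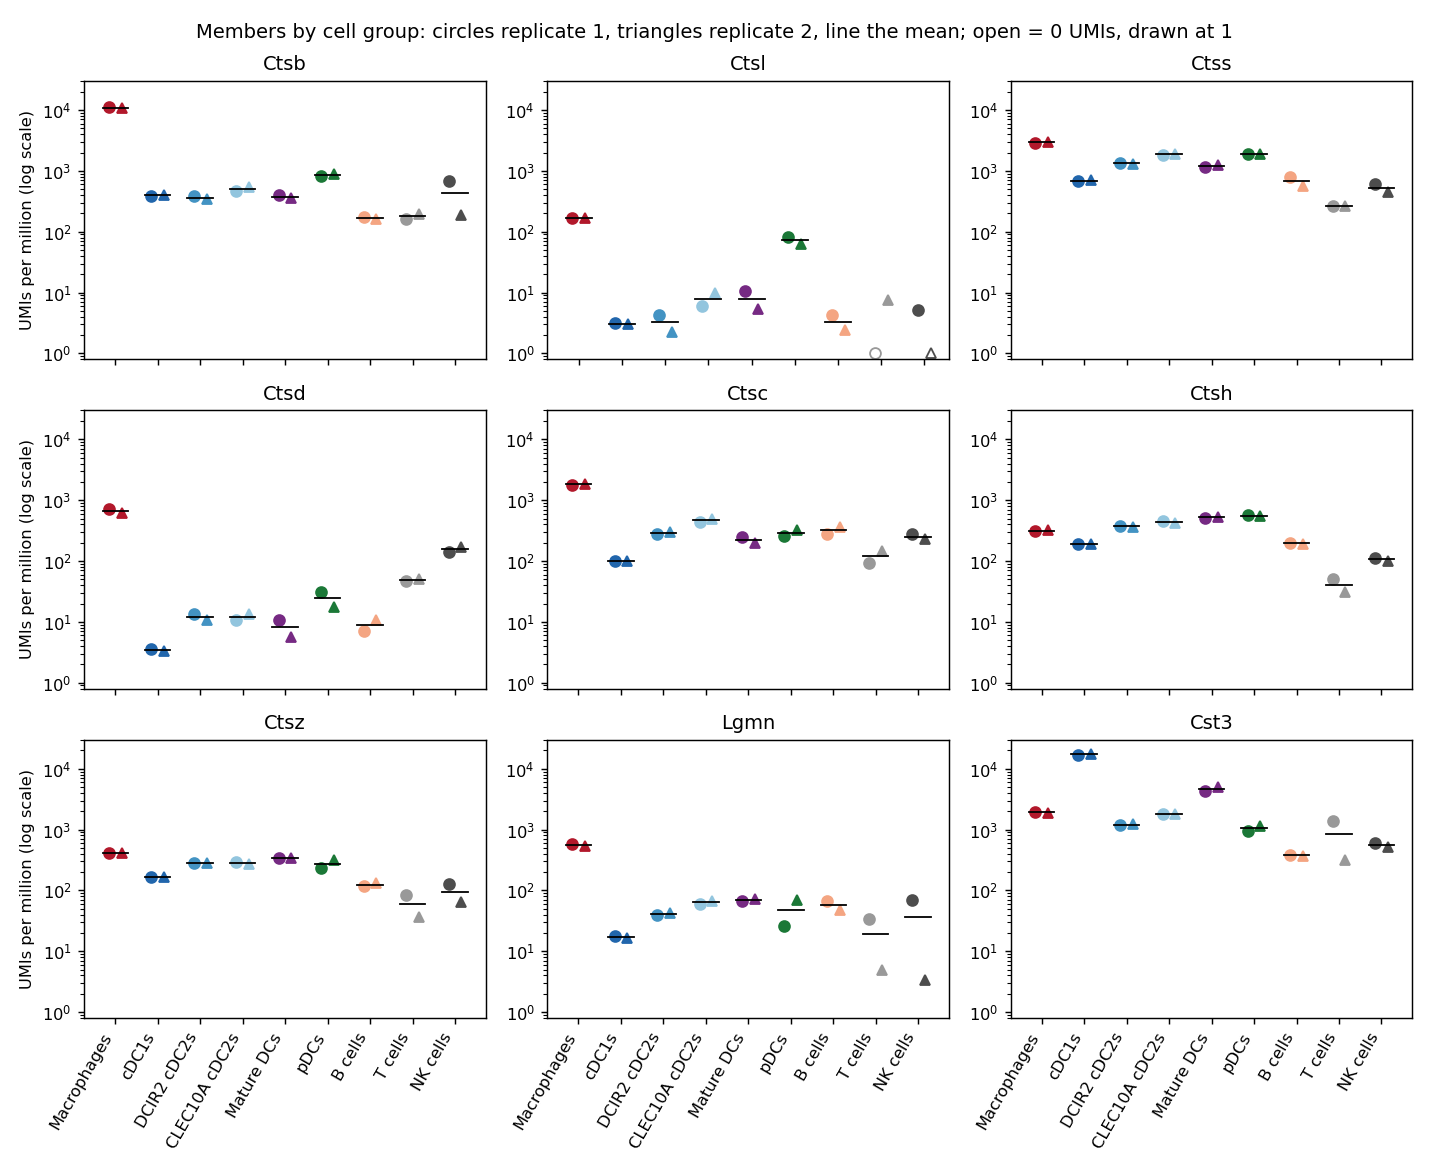
Level of each of the 9 genes (vertical axis, CPM, log scale) in the 9 cell groups (horizontal axis), with a circle for replicate 1, a triangle for replicate 2 and a line for their mean. A sample with 0 UMIs is drawn open at 1 and its group has no line. Macrophages lead in 7 of 9 genes, pDCs in Ctsh and cDC1s in Cst3, and the NK- and T-cell values of replicate 1 that rest on 1 cell lie far above those of replicate 2.

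The group with the highest mean was the same for each of the 9 genes with 3 measures, the CPM of the summed UMIs, the mean of the CPM of single cells and the thinned share of cells: macrophages for 7 genes, pDCs for Ctsh and cDC1s for Cst3. The lead of pDCs in the thinned share of Ctsh was in the mean only, at 78.6% (49.2 to 95.3) of 14 cells and 70.0% (45.7 to 88.1) of 20, and mature DCs at 70.7% were above them in replicate 2. The 9 genes together took 1.99% and 1.96% of all macrophage UMIs and 1.84% and 1.90% of all cDC1 UMIs. The makeup of these sums differed between the groups. Macrophages held 9.08 and 9.51 UMIs of the 8 proteases per Cst3 UMI, against 0.0916 and 0.0913 in cDC1s. DCIR2 cDC2s held 2.34 and 2.19, CLEC10A cDC2s 1.98 and 2.08, pDCs 4.13 and 3.59 and mature DCs 0.643 and 0.556. The 2 samples of each of these groups lay close together, and the ranges of the DCs and macrophages did not overlap. These counts are of transcripts and give no measure of enzyme or inhibitor activity.

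**Figure D2:**
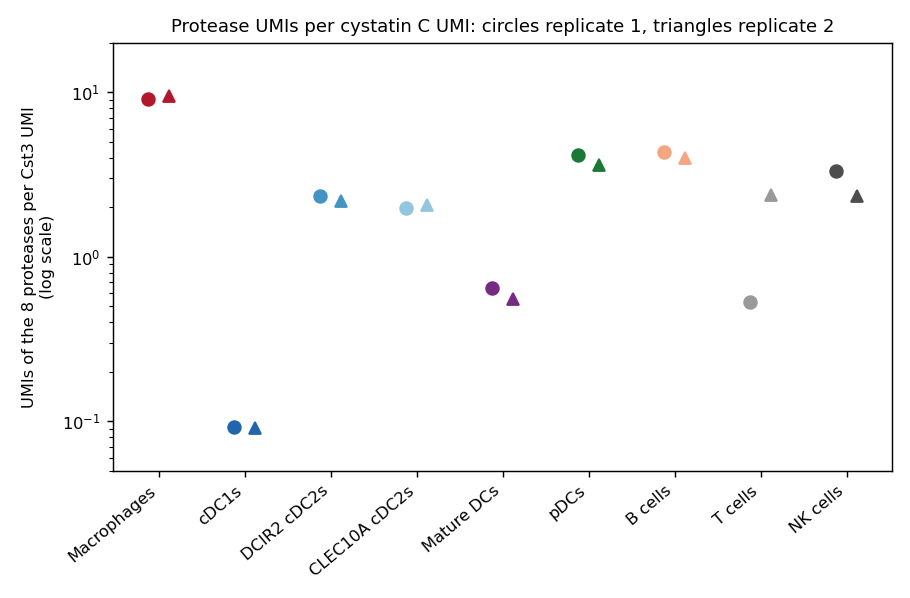
UMIs of the 8 proteases per UMI of Cst3 (vertical axis, log scale) in each cell group (horizontal axis), with a circle for replicate 1 and a triangle for replicate 2. Macrophages lie at 9.08 and 9.51 and cDC1s at 0.0916 and 0.0913, and the T-cell value of replicate 1 (0.533) includes the cell with 405 Cst3 UMIs.

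**Figure D3:**
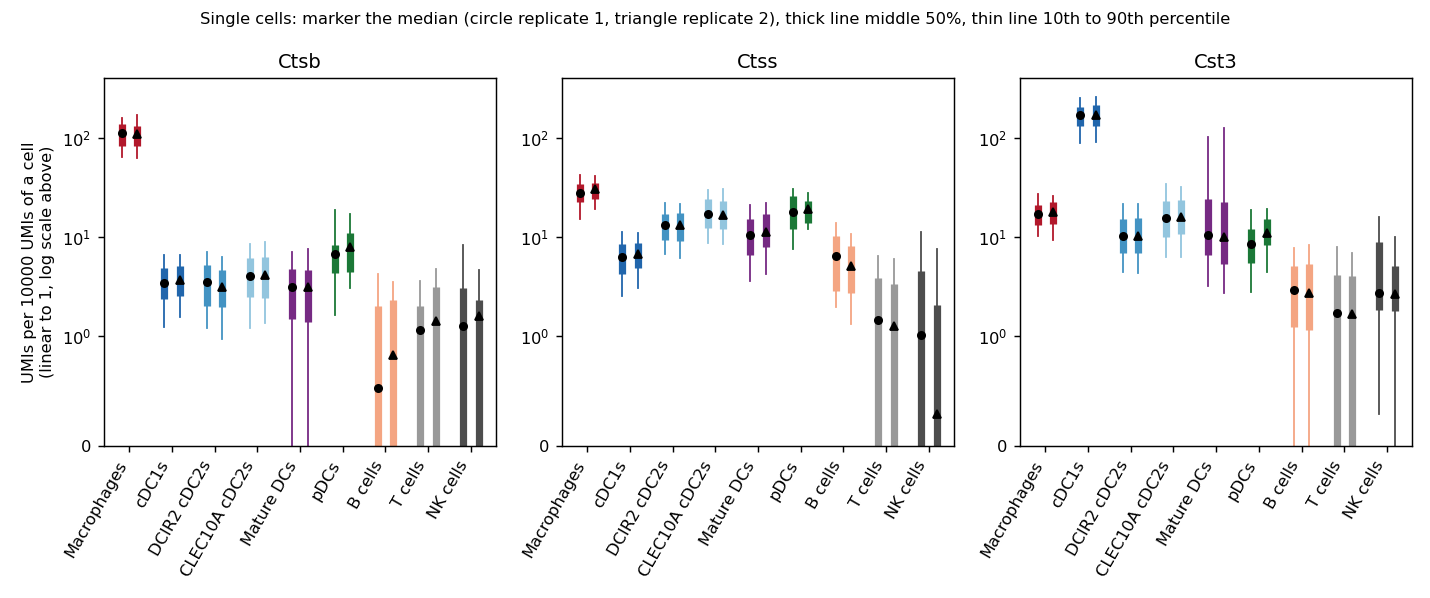
Ctsb, Ctss and Cst3 in single cells (vertical axis, UMIs per 10000 UMIs of a cell, linear up to 1 and logarithmic above) by cell group, with the median as a circle for replicate 1 or a triangle for replicate 2, the middle 50% of cells as a thick line and the 10th to 90th percentiles as a thin line. The Cst3 percentiles of mature DCs spread from 3.22 to 101 in replicate 1 and from 2.73 to 126 in replicate 2, whereas those of cDC1s run from 89.7 to 255 and from 91.7 to 258.

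To compare cell types, the UMIs of each group were summed per sample and the 18 sums were tested in 1 fit of edgeR's quasi-likelihood test. The p-values were adjusted over all tested genes by the Benjamini-Hochberg procedure, and 0.05 was the threshold. All 9 genes passed the filter on low counts, which a gene can pass through the group where it is high. The groups of a comparison come from the same samples, and the comparisons with conventional DCs share these groups. Fold changes against several groups are against the mean of their log2 levels, and a CPM over several groups is the mean of the CPM of each group.

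Macrophages were compared with conventional DCs, that is cDC1s, DCIR2 cDC2s and CLEC10A cDC2s. Of the 9 genes, 7 were higher in macrophages and 0 lower, where 55.1% of 12216 genes passed the test, 28.8% higher and 26.3% lower. Ctsd (log2 fold change 6.46 ± 0.12 SE, adjusted p = 1.03e-21) and Ctsl (5.38 ± 0.18, adjusted p = 2.29e-17) were set against low DC levels, so the size of these differences is uncertain. For Ctsl the DC shares were at the background of T cells. The thinned Ctsd share of each conventional DC group lay below the upper bounds in B cells (4.93% and 5.04%), which does not show absence. Large differences were also found for Ctsb (4.81 ± 0.25, adjusted p = 5.06e-08, 28.0-fold) and Lgmn (4.06 ± 0.22, adjusted p = 2.81e-09, 16.6-fold). Ctsc followed at 3.0 ± 0.11 (adjusted p = 1.0e-16, 8.0-fold), Ctss at 1.37 ± 0.10 (adjusted p = 3.17e-10) and Ctsz at 0.90 ± 0.13 (adjusted p = 2.17e-06). These 7 calls held under every alternative with a test. Ctsh differed by 0.09 ± 0.09 (adjusted p = 0.413). Cst3 differed by -0.71 ± 0.38 (adjusted p = 0.145), with adjusted p from 1.44e-08 to 0.220 over 10 alternatives, of which 4 called it. One of these left out the T cell and the NK cell described above (adjusted p = 2.42e-07), which belong to neither side but share in the estimate of the spread. Cst3 in macrophages (1979 and 1868 CPM) was below cDC1s (16879 and 17410) but above both cDC2 groups (at most 1805).

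Most of the lysosomal genes tested were also higher in macrophages. Of 43 further lysosomal genes tested, 34 were higher in macrophages and 2 lower, with a median log2 fold change of 1.42 against -0.0090 over all genes. The acid phosphatase Acp2 was at 809 and 757 CPM in macrophages and 35.9 and 41.9 CPM over the conventional DCs (4.54 ± 0.10, adjusted p = 2.89e-20), and Acp5 was 3.53 ± 0.12 higher (adjusted p = 3.34e-17), as was the membrane protein Cd63 by 4.68 ± 0.42 (adjusted p = 3.46e-06). Of 5 other cathepsins tested, 3 were higher and 0 lower, among them the carboxypeptidase Ctsa (1.80 ± 0.11, adjusted p = 2.48e-12). Of 6 other cystatins and serpins, 4 were higher and 2 lower. Cstb, the cytosolic inhibitor cystatin B, was higher by 2.18 ± 0.10 (adjusted p = 1.90e-14) and Serpinb6a by 5.87 ± 0.23 (adjusted p = 4.27e-11). Serpinb6b was lower than the mean of the DC groups (log2 fold change -1.07 ± 0.21, adjusted p = 0.000290). Its level in macrophages (21.6 and 19.1 CPM) was close to DCIR2 (23.3 and 20.9) and CLEC10A cDC2s (18.2 and 16.7). Only cDC1s were far higher, at 211 and 282 CPM. Of 10 substrates and partners tested, 3 were higher and 4 lower. Tlr7, an endosomal receptor that cathepsins and legumain cleave, was higher (2.86 ± 0.14, adjusted p = 8.18e-14), and the invariant chain gene Cd74 was lower (-1.63 ± 0.25, adjusted p = 0.000320), at 4469 and 6736 CPM against 18281 and 18575.

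**Figure D4:**
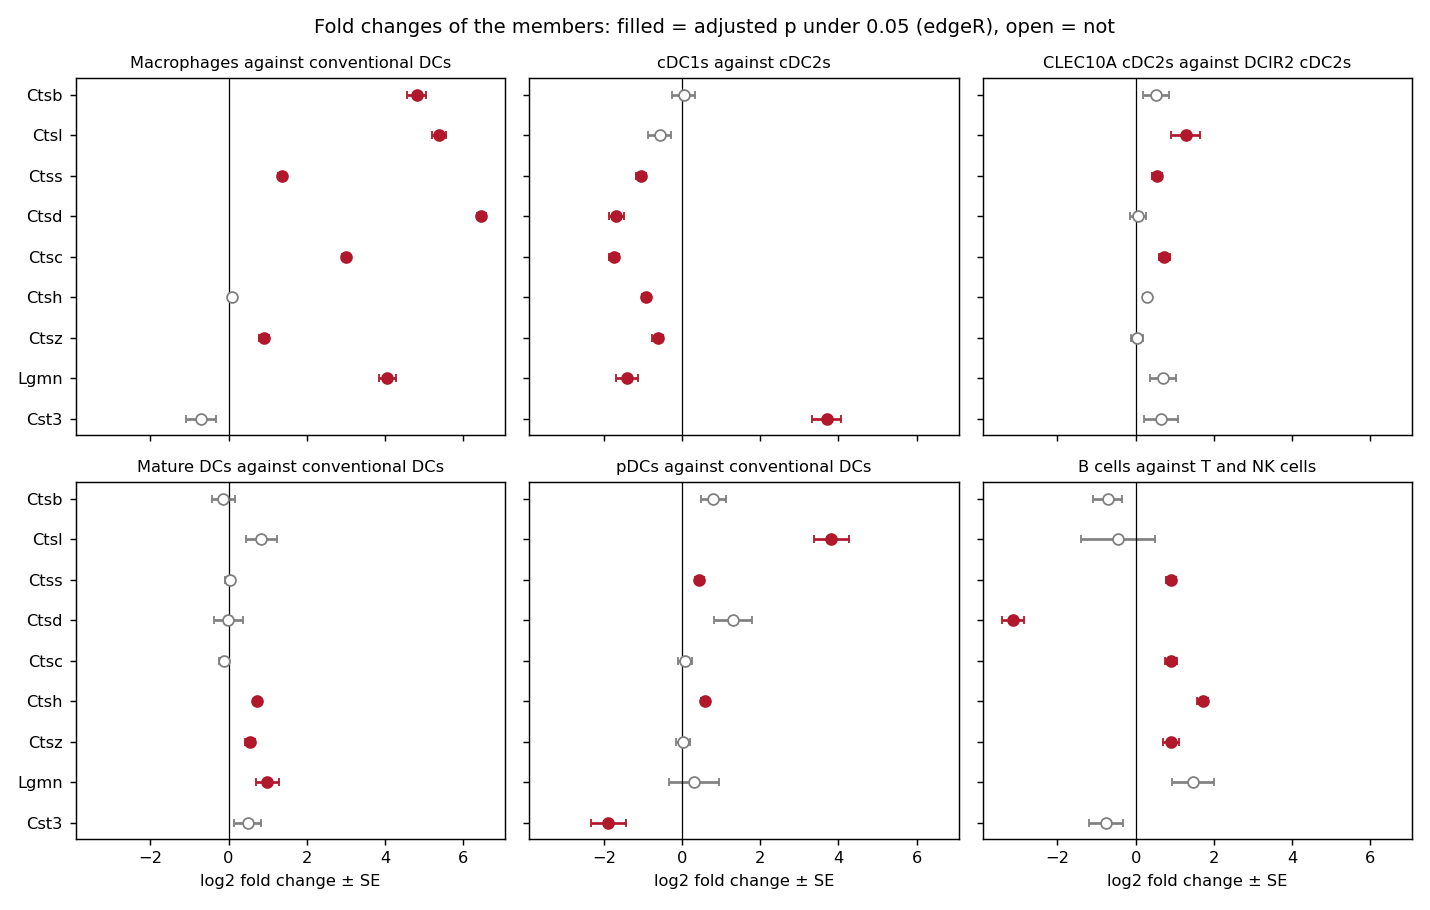
Log2 fold change (horizontal axis) with its standard error for each of the 9 genes (vertical axis) in 6 comparisons between cell groups, filled where the adjusted p of edgeR's quasi-likelihood test was under 0.05. In macrophages 7 genes lie to the right of 0, and in cDC1s Cst3 lies at 3.69 while 6 proteases lie between -1.74 and -0.62.

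Among conventional DCs, cDC1s, which excel at presenting antigen to CD8+ T cells, were compared with both cDC2 groups, which mainly serve CD4+ T cells. Cst3 was higher in cDC1s (3.69 ± 0.38, adjusted p = 2.85e-05, 12.9-fold) and 6 of the 8 proteases were lower, where 36.9% of genes passed the test, 18.6% higher and 18.2% lower. These were Ctsc (-1.74 ± 0.14, adjusted p = 4.31e-10), whose cDC1 share overlapped with that of T cells, and Ctsd (-1.68 ± 0.19, adjusted p = 1.19e-07), which was low in both. The others were Lgmn (-1.41 ± 0.29, adjusted p = 0.00171), Ctss (-1.05 ± 0.12, adjusted p = 5.44e-07), Ctsh (-0.93 ± 0.10, adjusted p = 8.24e-08) and Ctsz (-0.62 ± 0.14, adjusted p = 0.00117). Thinned Ctsd shares of cDC2s were at most 3.19%, so its fold change rests on few UMIs per cell. Ctsb (0.04 ± 0.29, adjusted p = 0.938) and Ctsl (-0.57 ± 0.29, adjusted p = 0.128) did not pass. The call of Ctsd was lost on thinned cells (adjusted p = 0.0867) and that of Lgmn with DESeq2 (adjusted p = 0.115). Without TMM scaling, 36.3% instead of 50.5% of the genes called were higher in cDC1s and the median of all genes was -0.13 instead of 0.0084. The same 7 of 9 genes passed, where 38.0% of all genes did.

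Lysosomal genes went both ways in cDC1s. Of 43 other lysosomal genes, 13 were higher and 16 lower in cDC1s, with a median of -0.05. Ppt1, the thioesterase that removes palmitate from proteins, was at 2568 and 2532 CPM in cDC1s and 151 and 126 in cDC2s (4.35 ± 0.13, adjusted p = 4.61e-16), and Gusb (beta-glucuronidase) was 3.03 ± 0.19 higher (adjusted p = 2.39e-09), whereas Acp5 was lower (-2.54 ± 0.17, adjusted p = 2.48e-11). Of the other cathepsins Ctsa was lower (-2.23 ± 0.14, adjusted p = 1.47e-11), and 1 of 5 was higher and 2 lower. Among 6 inhibitors, 3 were higher, Serpinb6b (3.79 ± 0.18, adjusted p = 2.12e-12), Serpinb9 (3.04 ± 0.16, adjusted p = 8.75e-13), which inhibits granzyme B, and Cstb (0.74 ± 0.12, adjusted p = 2.08e-05), and 1 was lower. Of 10 substrates and partners, 3 were higher and 3 lower. The cDC1 marker Naaa was higher (4.81 ± 0.13, adjusted p = 1.66e-17) and Tlr7 lower (-4.79 ± 0.23, adjusted p = 1.50e-13), at 2.93 and 2.66 CPM in cDC1s.

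Within cDC2s, CLEC10A cDC2s were compared with DCIR2 cDC2s. Ctsc (0.74 ± 0.14, adjusted p = 0.00248), Ctss (0.55 ± 0.14, adjusted p = 0.0178) and Ctsl (1.28 ± 0.37, adjusted p = 0.0418) were higher in CLEC10A cDC2s and 0 of the 9 genes were lower, where 5.57% of genes passed the test, 3.82% higher and 1.74% lower. Both Ctsl shares are at background, and its call was lost on thinned cells (adjusted p = 0.837), with doubled minimums (0.207) and without TMM (0.0519), and its log2 fold change was 2.10 without replicate 1 and 0.54 without replicate 2. The call of Ctss was lost when cells that met more than 1 minimum were left out (adjusted p = 0.114), and 219 and 170 cells met those of both cDC2 groups. The other genes ranged from 0.04 (Ctsz) to 0.70 (Lgmn, adjusted p = 0.293). With only both groups in the fit 7 genes passed, where 15.5% of all genes did. Without the T cell and the NK cell described above 5 passed, where 5.92% of all genes did. Among these 5 were Cst3 (0.65, adjusted p = 0.000244 against 0.572, and up to 0.902 over the alternatives) and Ctsb (0.52, adjusted p = 0.00873 against 0.532, and up to 0.888). Of 43 other lysosomal genes 7 were higher and 1 lower, with Psap, the precursor of the saposins, at 1.5 ± 0.20 (adjusted p = 0.000891), Npc2, a cholesterol carrier, at 1.16 ± 0.13 (adjusted p = 6.77e-06) and Lamp1 at 0.82 ± 0.15 (adjusted p = 0.000891).

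Mature DCs, which have left the immature state and express Ccr7, were compared with conventional DCs. Ctsh (0.74 ± 0.09, adjusted p = 9.19e-07), Ctsz (0.55 ± 0.13, adjusted p = 0.00265) and Lgmn (0.99 ± 0.29, adjusted p = 0.0194, and 0.232 with DESeq2) were higher and 0 of the 9 genes were lower, where 34.0% of genes passed the test, 16.9% higher and 17.1% lower. For Lgmn the mean over conventional DCs includes cDC1s, at 18 and 16.7 CPM. Its level in mature DCs (67.2 and 72.8 CPM) lay close to CLEC10A cDC2s (60.7 and 66.9) and above DCIR2 cDC2s (at most 42.8). Ctss differed by 0.02 ± 0.11 (adjusted p = 0.895) and Ctsb by -0.13 ± 0.28 (adjusted p = 0.774). Cst3 was at 0.49 ± 0.35 (adjusted p = 0.334), with adjusted p from 4.54e-06 to 0.719 over the alternatives and 4.89e-05 without the T cell and the NK cell. With doubled minimums 5 of the 9 genes passed, where 35.9% of all genes did. Lysosomal genes went both ways, 12 of 43 higher and 13 lower. Cd63 was higher by 6.32 ± 0.40 (adjusted p = 5.71e-07) and Lamp1 by 2.16 ± 0.11 (adjusted p = 3.02e-13), and Cd68 was lower (-1.55 ± 0.15, adjusted p = 2.25e-08). Of 6 inhibitors 4 were higher, led by Serpinb9 (3.11 ± 0.14, adjusted p = 1.19e-13) and Serpinb6b (2.24 ± 0.17, adjusted p = 3.12e-09), and 0 lower. Serpinb6b in mature DCs (183 and 244 CPM) was above both cDC2 groups but below cDC1s (211 and 282).

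Mature DCs were not uniform in Cst3. Cells with at least 1 UMI of the cDC1 genes Clec9a, Xcr1, Cadm1, Naaa or Tlr3 numbered 62 and 96 and held 6489 and 7039 CPM of Cst3, against 2103 and 1622 CPM in the 85 and 91 mature DCs with none. This split was made after the spread of Cst3 had been seen and has no test. Median depths were 13056.5 and 12055 UMIs with such a UMI and 8845 and 9340 without, and 6 and 15 mature DCs also met the minimums of cDC1s. Ctsh was lower in the cells with a cDC1 gene, at 423 and 476 CPM against 609 and 604, whereas Ctss was alike, at 1129 and 1254 CPM against 1211 and 1255.

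**Figure D5:**
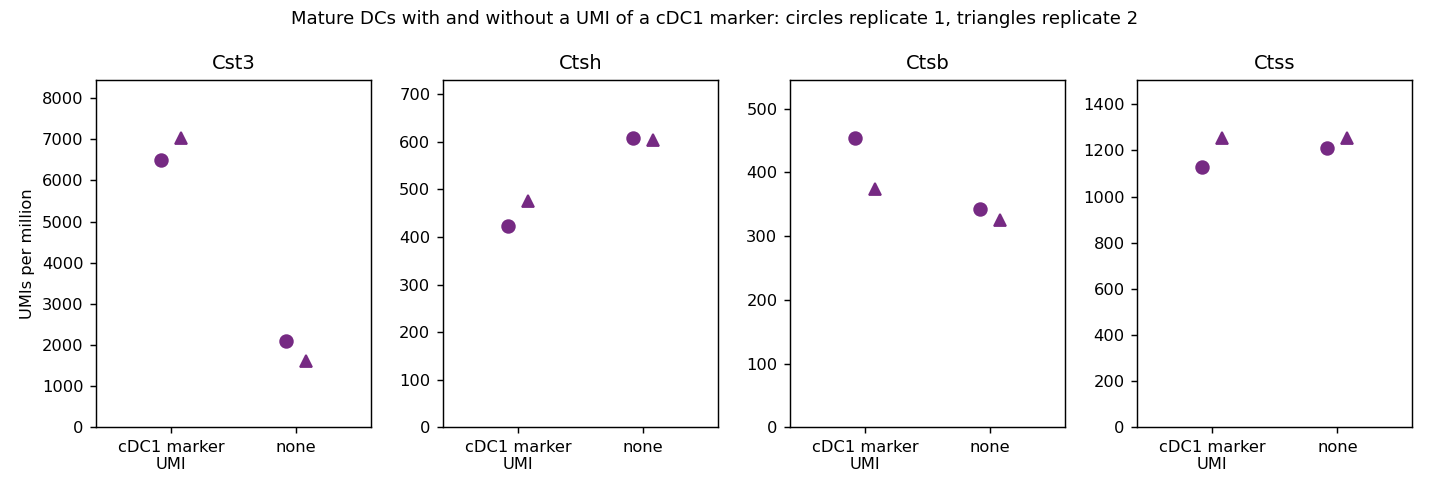
Cst3, Ctsh, Ctsb and Ctss (vertical axes, CPM from 0) in mature DCs with at least 1 UMI of a cDC1 gene and with none (horizontal axis), with a circle for replicate 1 and a triangle for replicate 2. Cst3 lies at 6489 and 7039 CPM with such a UMI and at 2103 and 1622 without, and Ctsh lies at 423 and 476 CPM against 609 and 604.

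The pDCs, which sense viral nucleic acids in endosomes, were compared with conventional DCs. Ctsl (3.82 ± 0.45, adjusted p = 2.87e-06), Ctsh (0.59 ± 0.11, adjusted p = 0.00120) and Ctss (0.44 ± 0.12, adjusted p = 0.0168) were higher and Cst3 was lower (-1.88 ± 0.44, adjusted p = 0.0237), where 11.3% of genes passed the test, 4.86% higher and 6.44% lower. Ctsl and Cst3 passed under every alternative with a test. The mean over conventional DCs includes cDC1s, at 16879 and 17410 CPM of Cst3 and 671 and 711 of Ctss. In pDCs Cst3 (952 and 1159 CPM) lay nearest to DCIR2 cDC2s (1168 and 1214). Their Ctss (1908 and 1930 CPM) lay close to CLEC10A cDC2s (1847 and 1898). Ctsl and Ctsh in pDCs lay above each conventional DC group. The Ctsl level of pDCs rested on 16 and 18 UMIs, and the intervals of its thinned shares overlapped with those of T cells. The calls of Ctsh and Ctss were lost among cells that met exactly 1 minimum (adjusted p = 0.0973 and 0.965) and on thinned cells (0.283 and 0.478). Ctsb was at 0.80 ± 0.31 (adjusted p = 0.149), with adjusted p from 2.5e-05 to 0.882 over 10 alternatives, of which 3 called it. The group holds 192317 and 283963 UMIs in all, the smallest sums of the fit. Without TMM 70.7% instead of 43.0% of the genes called were higher in pDCs and the median of all genes was 0.03 instead of -0.20. Again 4 of 9 genes passed, where 10.2% of all genes did. Of 43 other lysosomal genes 4 were higher and 9 lower, with Ppt1 at -2.08 ± 0.23 (adjusted p = 1.77e-06), Psap at -1.57 ± 0.20 (adjusted p = 0.000231) and Npc1 at 1.57 ± 0.25 (adjusted p = 0.000140). Ppt1 in pDCs (125 and 84.5 CPM) was near DCIR2 cDC2s (139 and 108), as was Psap (1170 and 866 against 886 and 968). Ctsa was higher (0.73 ± 0.17, adjusted p = 0.00724), 1 of 5 other cathepsins.

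B cells, the antigen-presenting lymphocytes, were compared with T and NK cells. Ctsh (1.72 ± 0.14, adjusted p = 4.65e-09), Ctss (0.91 ± 0.13, adjusted p = 2.08e-05), Ctsc (0.90 ± 0.15, adjusted p = 0.000102) and Ctsz (0.91 ± 0.21, adjusted p = 0.00325) were higher in B cells, and Ctsd was lower (-3.13 ± 0.28, adjusted p = 1.11e-08), where 19.6% of genes passed the test, 9.56% higher and 10.1% lower. The call of Ctsz was lost on thinned cells, with the filter on deviations and with only these groups in the fit (adjusted p = 0.0521, 0.0648 and 0.0709), and its log2 fold change was 1.45 without replicate 1 and 0.31 without replicate 2. Lgmn was at 1.46 ± 0.54 (adjusted p = 0.0814) and at 2.49 without the T cell and the NK cell described above (adjusted p = 0.000163), with adjusted p up to 0.427 over the alternatives, of which 4 of 10 called it. Ctsw, a cathepsin of cytotoxic lymphocytes, was lower in B cells by 6.67 (log2 fold change -6.67 ± 0.51, adjusted p = 2.16e-09), at 198 and 238 CPM over T and NK cells, and Ctso was higher (1.58 ± 0.25, adjusted p = 5.22e-05). Cst7, the cystatin of cytotoxic granules, was at 70.6 and 71.0 CPM over T and NK cells and 0 and 1.21 in B cells. Of 43 other lysosomal genes 7 were higher and 8 lower in B cells.

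The study sets Langerin+ cDC1s and Siglec1 (CD169)-expressing macrophages apart, by the level of Cd207, which encodes Langerin, or of Siglec1. Here only cells within the minimums of cDC1s and macrophages were split, by at least 1 UMI of Cd207 or of Siglec1. The study names no minimum of Vcam1 or C1qb for its macrophages, so its set of cells differs from the macrophages split here. Langerin+ cDC1s (137 and 154 cells) held Cst3 at 18853 and 19925 CPM and Langerin- cDC1s (660 and 556 cells) at 16375 and 16524. With edgeR 0 of the 9 genes passed the test, where 0.251% of 12361 genes did, 0.00809% higher and 0.243% lower. An unadjusted p under 0.05 was found for 2 of them, Ctsc at 78.2 and 79.6 CPM against 108 and 106 (log2 fold change -0.38 ± 0.15, adjusted p = 0.748) and Ctsl, which is at background in both. DESeq2 called 0. Cst3 was 0.30 ± 0.40 higher (adjusted p = 1.00), and adjusted p = 0.000658 with only both groups in the fit. Median depth was 23588 and 26746 UMIs in Langerin+ and 19206.5 and 20588 in Langerin- cells.

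Siglec1+ macrophages (129 and 73 cells) and Siglec1- macrophages (229 and 88) held these genes at close levels, with Ctsb at 11102 and 10677 CPM against 11118 and 11062 and Cst3 at 1720 and 1742 against 2147 and 1996. With edgeR 0 of 9 genes passed, 0 had an unadjusted p under 0.05 and DESeq2 called 0, where 0.113% of genes passed, 0.00809% higher and 0.105% lower. Differences ranged from -0.27 ± 0.41 (Cst3) to 0.13 ± 0.14 (Ctsc). A difference of 2-fold was recovered for 70 of 100 genes in simulated data of this comparison and for 81 of 100 in that of Langerin. Differences of this size or smaller could thus be missed. Each simulated gene started from its mean level over all groups, so these counts do not give the recovery of a single member in these cells.

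The genes whose levels followed each member most closely were taken among 6065 genes with at least 50 CPM in at least 2 of the 18 sums, by Pearson's r of log2(CPM + 1), which describes these sums only, since they share samples and depth. Ctsd was nearest to Hgsnat (0.952), an acetyltransferase of lysosomal heparan sulfate breakdown, Ctsc to Atp6ap1 (0.922), a subunit of the proton pump, and the peptidase Tpp1 also among its 3 nearest (0.909), and Ctsl to Lamp2 (0.899), a lysosomal membrane protein. Ctsh was nearest to the chaperone Cnpy3 (0.954), followed by Prkcd (0.954) and the serine carboxypeptidase Scpep1 (0.945), and Ctss to Stard5 (0.963). Ctsb was nearest to P2ry13 (0.956), Ctsz to Rassf4 (0.946) and Lgmn to Pira2 (0.894) and Apoe (0.878). Cst3 was nearest to Slc8b1 (0.919), Atpif1 (0.919) and Gusb (0.910). Between the members themselves r was highest for Ctss with Ctsz (0.917) and Ctsh with Ctsz (0.909), and lowest for Ctsd with Cst3 (-0.371).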

How the data were processed

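The authors deposited 1 table of UMI counts per sample, made with the BD Rhapsody WTA Analysis Pipeline 1.12.1 on GRCm38 with GENCODE vM19, with UMIs corrected by the pipeline and no normalization, and held whole numbers only. The submitters' notes name R 4.2.3 and Seurat 4.3.0.1. The sources used here do not say whether counting used strand. This bears on Ctsl, which shares 26.8% of its exon bases with Gm47123, and on Ctsb, which shares 12.8% with Fdft1. Both overlapping genes lie on the opposite strand, so the levels of Ctsl and Ctsb carry this limit. Fdft1 itself was counted at 18.3 and 21.7 CPM in macrophages and 18.7 and 15.4 in cDC1s. Sample tags of the run also mark other samples, which were not analysed here. The 9 genes, the cell minimums and the lists (44 lysosomal genes, 15 other cathepsins, 13 other cystatins and serpins, 14 substrates and partners) were chosen with earlier results of these data known.

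UMIs were summed per cell group and sample, the genes of the minimums were left out, and edgeR 4.0.16 (TMM, filterByExpr, robust quasi-likelihood F-test) was run in R 4.3.3 on 18 sums, or 22 with split groups. Standard errors were derived from the log2 fold change and its F statistic. Named genes of a list are the 3 called genes with the largest absolute log2 fold change and at least 50 CPM in both samples of the higher group. No doublet caller was run; an alternative left out cells that met more than 1 minimum. Other alternatives were DESeq2 1.42.0, no TMM, no filter on low counts, doubled minimums, cells thinned to 3000 UMIs, the deviation filter of the methods (3 median absolute deviations, 2928 and 2725 cells kept), only the groups compared in the fit, and a replicate block. The alternative without 1 T cell and 1 NK cell was added after the data were seen. Replicates differed beyond the counting noise of UMIs (chi-square per degree of freedom 2.47 to 6.10). This measure does not separate the sampling of cells from a difference between the samples. The groups of a sample share a number because they are 1 sample, so the numbers pair the sums: over 36 pairs of groups and 1764 genes, the correlation of deviations from the group mean was -0.0172 to 0.346, median 0.0603. On simulated data 76 to 100 of 100 genes changed 4-fold and 36 to 94 of 100 changed 2-fold were recovered, lowest for pDCs, with 6 to 15 false calls. Sums and shares were computed in Python 3.11.15 (scipy 1.17.1, numpy 2.4.6, pandas 2.3.3), and matplotlib 3.10.9 drew the plots.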

Additional observations from a re-analysis of the deposited data

Results flagged for a closer look

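Cells that met none of the 9 minimums, 770 in replicate 1 and 701 in replicate 2, entered no comparison, and all 9 genes were found in them above the limit that 3 counts set (0.457 CPM). Mean levels over both samples were 589 CPM for Ctsb, 359 for Ctsc, 26.4 for Ctsd, 365 for Ctsh, 10.5 for Ctsl, 1419 for Ctss, 309 for Ctsz, 69.2 for Lgmn and 1779 for Cst3. Cst3 was at 2121 CPM in replicate 1 and 1437 in replicate 2. These cells also held Lyz2 at 1266 and 2239 CPM, Csf1r at 204 and 271, S100a8 at 79.0 and 549 and C1qb at 64.9 and 86.2.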

How the results depend on the processing

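Of 29 calls of the 9 genes over 8 comparisons, all kept their direction in each sample alone, and no called value changed sign under an alternative. Over 863 values, 819 were counted as unchanged, and 14 lost and 30 gained the call. The values with 1 sample left out are among the 863 and have no test. They were counted as unchanged unless a called value changed sign, so 819 is not a count of tests. A change of sign around 0 was found for 50 values of genes that were not called. In macrophages against conventional DCs, in cDC1s against cDC2s and in mature DCs the number of genes called stayed within 1.5 times under each alternative. Mature DCs gave 5 instead of 3 of the 9 genes with doubled minimums, where 35.9% instead of 34.0% of all genes passed. For pDCs, 871 genes (7.48%) passed among cells of exactly 1 group and 487 (4.97%) on thinned cells instead of 1381 (11.3%). Of the 9 genes 2 passed in both instead of 4. With DESeq2 6 of the 9 passed, where 14.1% of all genes did. Both with only the groups compared (13.7% of all genes) and without the T cell and the NK cell (11.6%) 5 passed. For CLEC10A against DCIR2 cDC2s, 1148 genes (9.86%) passed among cells of exactly 1 group and 1784 (15.5%) with only both groups in the fit, instead of 680 (5.57%). Without the filter on low counts 1022 (4.10%) passed. Of the 9 genes 7 passed with only both groups and 5 without the T cell and the NK cell (5.92% of all genes) instead of 3. Without TMM 56.7% instead of 68.7% of calls were higher. For B cells 1435 instead of 2400 genes passed with only these groups in the fit. For Langerin, 8 passed among cells of exactly 1 group, 12 on thinned cells and 83 with DESeq2 instead of 31. With only both groups 141 passed (1.22% of all genes), and 125 without the filter. Of the 9 genes 1 instead of 0 passed with only both groups. For Siglec1, 5, 0, 31, 9 and 96 passed under the same alternatives and 0 with the deviation filter instead of 14, so both counts depend on the processing. The replicate block changed no call of the 9 genes; the number of genes called was 6910 for macrophages, 4314 for mature DCs, 1264 for pDCs, 4847 for cDC1s, 1009 for CLEC10A cDC2s, 2405 for B cells, 42 for Langerin and 15 for Siglec1. Left with 1 sample, a comparison has a value and no test. The cause of these differences was not tested.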
